A study of Mus musculus with 6 samples.

Results

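The regions described here were promoter regions that the peak lists of mouse oviduct muscle held for Pbrm1 cKO cells but not for WT cells. They were chosen by the calls themselves. Overlapping entries were merged within each genotype's list of reproducible ATAC-seq peaks, which gave 56436 WT and 58935 Pbrm1 cKO regions. A member was a merged Pbrm1 cKO region that shared no base with any WT region and lay within 1 kb of an annotated transcript start. There were 1953 members among the 11619 regions called only in Pbrm1 cKO, and the lists of both genotypes together covered 66679 regions. Since the genotype contrast selected the members, their levels in the 2 genotypes are given below as a description and not as evidence of a difference.

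ATAC-seq inserts sequencing adapters into open chromatin with a transposase, so that an accessible site gathers many insertions. The 6 libraries came from oviduct smooth muscle cells that were plated for a few hours after digestion of the tissue, 3 from WT and 3 from Pbrm1 cKO females. All females were 8 to 12 weeks of age, had been mated with a stud male and were on day 2 of pregnancy. Per the study's methods, Pbrm1 cKO mice were Pbrm1 fl/fl/PR IRES-cre/+, in which the progesterone receptor gene drives Cre, and the controls were Pbrm1 fl/fl littermates. A deletion of this kind is made only in cells that have expressed the progesterone receptor, and the labels named the controls WT without giving an allele. Whether each library came from 1 animal or from a pool was not given in the sources used here, so the spread between libraries may be partly technical.

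A promoter is the stretch around a transcript start where the transcription machinery assembles, and active promoters are usually free of nucleosomes. In mammals many of them lie in CpG islands, where the CpG dinucleotide has escaped the depletion seen elsewhere in the genome, whereas CpG-poor promoters are more often used in particular tissues. Pbrm1 encodes a bromodomain protein of PBAF, one form of the SWI/SNF complex that slides or removes nucleosomes.

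The labelled cell type was checked by promoter regions of marker genes. All 7 smooth muscle markers, Acta2, Myh11, Cnn1, Tagln, Des, Smtn and Lmod1, had a promoter region in both lists, and 0 of them had a member. Of 7 oviduct epithelial markers only Foxj1 had a promoter region in both lists, and the other 6 had no promoter region in either list. All 4 endothelial markers and 3 of 4 fibroblast markers also had promoter regions in both lists, and the fibroblast markers Pdgfra and Dcn had a member besides.

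Sequences are shown for 7 members on which the results below turn, as 300 bases centred on the peak summit, on the plus strand of GRCm38 and read from the RefSeq copy of that assembly. Capitals mark matches on either strand to the motifs described further below. The first is the member that passed the rank comparison, a region in an intron of the zinc finger gene Zfp566 and near the start of the processed pseudogene Gm44872, at chr7:30086479-30086778.
Gm44872: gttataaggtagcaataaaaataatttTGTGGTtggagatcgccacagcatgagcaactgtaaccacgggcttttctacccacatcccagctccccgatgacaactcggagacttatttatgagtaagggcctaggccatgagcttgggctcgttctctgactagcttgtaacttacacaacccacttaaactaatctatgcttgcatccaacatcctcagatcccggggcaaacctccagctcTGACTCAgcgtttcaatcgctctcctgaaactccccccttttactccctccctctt
The next 3 belong to the members with the smallest p-values that were named by a protein-coding gene with a start of a basic transcript, the annotation's set of representative transcripts. They lie at chr6:85904855-85905154 upstream of Nat8f4, at chr19:6427126-6427425 in an intron of Nrxn2 and at chr5:121009426-121009725 in an intron of Rph3a.
Nat8f4: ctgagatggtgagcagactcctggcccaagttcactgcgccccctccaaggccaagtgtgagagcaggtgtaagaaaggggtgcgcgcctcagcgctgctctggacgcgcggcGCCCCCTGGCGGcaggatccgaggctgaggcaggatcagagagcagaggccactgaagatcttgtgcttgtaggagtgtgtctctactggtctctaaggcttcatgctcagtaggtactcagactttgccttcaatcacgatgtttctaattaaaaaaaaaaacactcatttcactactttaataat
Nrxn2: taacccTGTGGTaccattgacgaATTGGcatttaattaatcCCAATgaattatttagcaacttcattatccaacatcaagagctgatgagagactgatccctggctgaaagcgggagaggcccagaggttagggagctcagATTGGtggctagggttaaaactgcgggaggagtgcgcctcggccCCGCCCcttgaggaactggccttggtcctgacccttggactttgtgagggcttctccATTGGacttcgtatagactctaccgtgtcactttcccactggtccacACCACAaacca
Rph3a: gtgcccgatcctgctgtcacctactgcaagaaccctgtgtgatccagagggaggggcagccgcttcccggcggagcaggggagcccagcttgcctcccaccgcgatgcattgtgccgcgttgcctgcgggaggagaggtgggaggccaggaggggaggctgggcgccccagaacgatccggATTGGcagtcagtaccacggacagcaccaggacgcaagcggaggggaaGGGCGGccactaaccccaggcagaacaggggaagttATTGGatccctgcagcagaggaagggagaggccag
The last 3 had an entry in all 3 Pbrm1 cKO libraries and in 0 of the 3 WT libraries. They lie at chr1:165484567-165484866 between genes near Adcy10, at chr7:100547680-100547979 in an exon of Mrpl48 and at chr6:139736040-139736339 in an intron of Pik3c2g.
Adcy10: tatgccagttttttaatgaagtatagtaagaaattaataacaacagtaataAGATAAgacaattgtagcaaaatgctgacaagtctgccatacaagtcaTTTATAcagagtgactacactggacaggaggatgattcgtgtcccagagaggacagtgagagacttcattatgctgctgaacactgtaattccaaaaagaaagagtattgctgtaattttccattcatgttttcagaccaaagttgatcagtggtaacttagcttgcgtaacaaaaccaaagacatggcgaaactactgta
Mrpl48: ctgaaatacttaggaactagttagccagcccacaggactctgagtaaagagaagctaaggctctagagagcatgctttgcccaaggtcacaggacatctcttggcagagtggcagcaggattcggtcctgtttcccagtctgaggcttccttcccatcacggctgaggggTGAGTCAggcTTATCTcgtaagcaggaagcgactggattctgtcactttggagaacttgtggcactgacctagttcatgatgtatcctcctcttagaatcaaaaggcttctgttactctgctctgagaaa
Pik3c2g: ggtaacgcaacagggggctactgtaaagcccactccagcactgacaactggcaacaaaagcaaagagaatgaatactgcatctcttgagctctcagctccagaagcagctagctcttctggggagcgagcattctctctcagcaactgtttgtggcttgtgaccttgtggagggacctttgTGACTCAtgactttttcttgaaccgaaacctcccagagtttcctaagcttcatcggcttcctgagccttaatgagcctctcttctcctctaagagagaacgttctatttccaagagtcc

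Of these 7 sequences, those of Gm44872, Mrpl48 and Pik3c2g carried the AP-1 letters TGANTCA, which 14.8% of all promoter regions held, and those of Nrxn2 and Rph3a carried a GC box, GGGCGG, which 51.3% held. The Nrxn2 and Rph3a sequences also held CCAAT boxes (CCAAT, 34.4% of all), the Gm44872 and Nrxn2 sequences RUNX letters (TGTGGT, 14.2%), and the Adcy10 and Mrpl48 sequences GATA letters (AGATAA, 6.91%). The Adcy10 sequence held a TATA box (TATAAA, 6.46%) and the Nat8f4 sequence the wider core of CTCF (4.41%). The Adcy10 sequence was AT-rich at 36.3% GC and held 3 CpG, and the Rph3a sequence was GC-rich at 66.0% with 16 CpG. The central 50 bases of each occurred once in the assembled chromosomes.

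To determine whether the members were closed in WT cells, each was looked up in the relaxed list that the authors deposited for each library, called at a p of 0.01 without a requirement of reproducibility. Of the 1953 members, 1594 (81.6%, 95% Wilson interval 79.8% to 83.3%) had an entry in all 3 WT libraries. A further 265 had an entry in 2 WT libraries, 67 in 1 and 27 in 0. Thus 1.38% of the members were without an entry in any WT library, and 19 of these 27 had an entry in all 3 Pbrm1 cKO libraries. The Wilson intervals in this report cover counting error only.

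**Figure D1:**
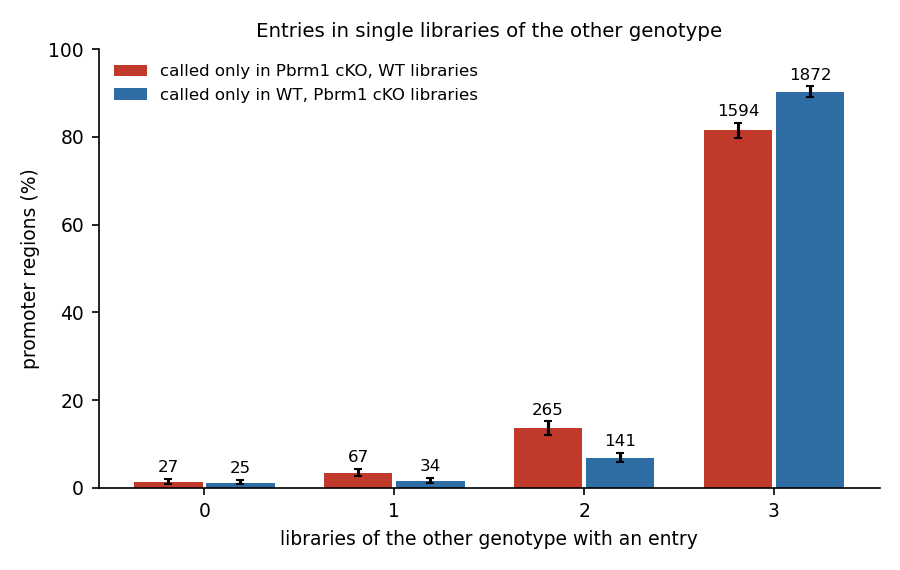
Share of promoter regions (%) by the number of libraries of the other genotype (0 to 3) that held an entry, for regions called only in Pbrm1 cKO against WT libraries and regions called only in WT against Pbrm1 cKO libraries; bars carry 95% Wilson intervals and the number of regions. Both sets stand mostly at 3 libraries, with 1594 and 1872 regions.

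The mirror set, 2072 promoter regions called only in WT, gave 1872 regions (90.3%) with an entry in all 3 Pbrm1 cKO libraries. WT library 3 held an entry at 86.2% of the members, WT libraries 1 and 2 at 94.9% and 94.3%, and the Pbrm1 cKO libraries at 98.6% to 99.6%. Among the 265 members that lacked exactly 1 WT entry, WT library 3 was the one without it at 191. Without that library, 91.4% of the members had an entry in both remaining WT libraries. With WT entries counted only among the 100000 best-ranked intervals of a library, 44.1% of the members had one in all 3 WT libraries.

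The level at a member was read as tags, the number of transposase insertions over the best peak summit, recovered from the fold and p of that summit. Over members with an entry, the median number of tags was 17, 15 and 12 for WT (libraries 1, 2 and 3 in order, here and below) and 23, 21 and 20 for Pbrm1 cKO. The WT values were all below the Pbrm1 cKO values, as the choice of members favours. Promoter regions in both lists had medians of 58.5, 50 and 35 tags in the WT and 64, 58 and 60 tags in the Pbrm1 cKO libraries, so WT library 3 had the fewest tags at these regions too. As a share of that median in the same library, the members stood at 31.1% ± 2.79 for WT and 35.2% ± 1.59 for Pbrm1 cKO (SD, n = 3). By library these shares were 29.1%, 30% and 34.3% for WT and 35.9%, 36.2% and 33.3% for Pbrm1 cKO. On this scale the genotypes overlapped, with WT library 3 above Pbrm1 cKO library 3. Relative to promoters called in both lists the members were low in both genotypes. In bulk libraries, fewer open cells and less accessibility per cell cannot be told apart.

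**Figure D2:**
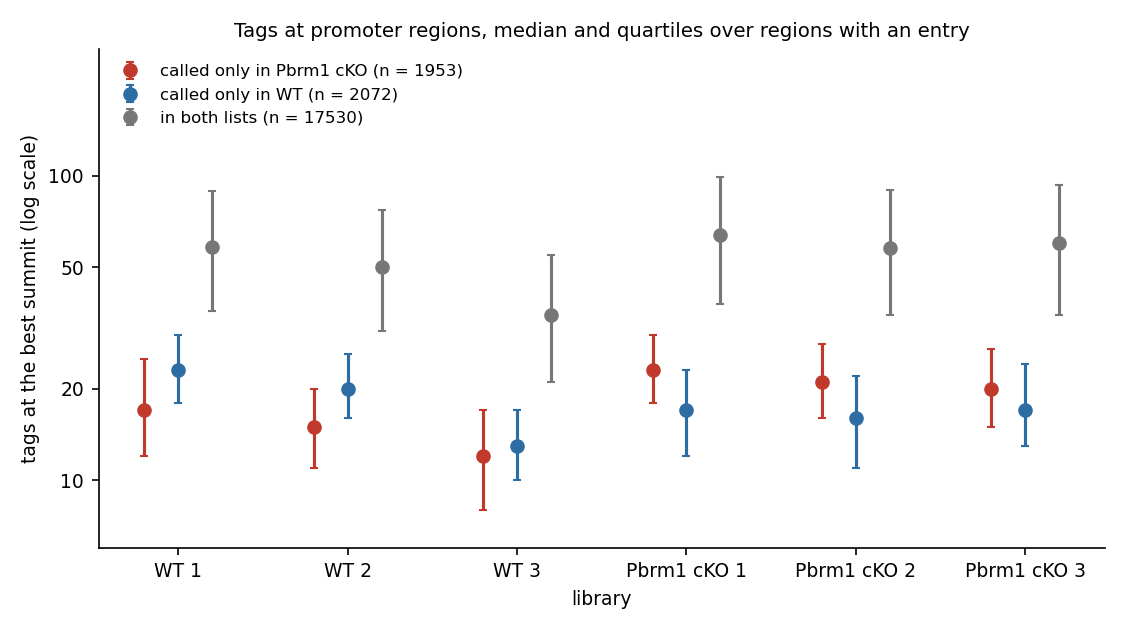
Tags at the best summit (log scale) in each of the 6 libraries for promoter regions called only in Pbrm1 cKO, only in WT, and in both lists; points are medians and bars the quartiles over regions with an entry. The medians of the members stand at 12 to 17 tags for WT and 20 to 23 tags for Pbrm1 cKO, well under the regions in both lists.

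The pooled lists differed in their tags as well. At regions in both lists the median was 85 tags in the WT list and 102 tags in the Pbrm1 cKO list, a ratio of 1.20. The members had a median of 60 tags in the Pbrm1 cKO list, with quartiles of 46 and 81. Their median −log10 p was 32.8, against 140 for promoter regions in both lists, and their median length was 303 bp against 753 bp. A region in both lists joins the regions of both genotypes and keeps the better p, so part of these 2 gaps comes from the merging. The part of the difference in tags between the lists in the calls was not tested.

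The rule set limits on distance and overlap. Near Aebp1 and Gm40293 a member lay 1000 bp from a start, just inside the distance rule, and a region near AC125458.1 lay 1001 bp away, just outside it. Members near Gm48488 and Zfp874b were separated from a WT region by 16 bp, whereas a Pbrm1 cKO region at Tom1l1 was left out because it shared 34 bp with a WT region. The Tom1l1 region was weaker, with a −log10 p of 6.12 against 32.1 and 35.0 for those members. A WT region lay within 1 kb of 766 members (39.2%). With only entries at an IDR of 0.01 or less kept in both lists, 1561 regions met the rule, and 614 members were among them, which is 31.4% of the members and 39.3% of the 1561. The other 1339 members had no entry in the Pbrm1 cKO list at that threshold.

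To compare the genotypes with replicates, every region of both lists was ranked within each library by its best −log10 p, and limma was fitted to the rank score, log2(number of regions / rank), in which a difference of 1 means that the rank number halved. Over all 66679 regions 26 were called higher in Pbrm1 cKO (0.039%) and 20 lower (0.03%) at a Benjamini-Hochberg adjusted p under 0.05. Among the members 1 was called higher and 0 lower, and 400 (20.5%) had an unadjusted p under 0.05, against 15.9% of all regions. These counts are descriptive, since the members were selected on the same contrast. Of the 2072 promoter regions called only in WT, selected in the mirrored way, 824 (39.8%) had an unadjusted limma p under 0.05. In that mirror set limma called 0 higher and 2 lower, and the median difference in rank score was -0.31. The median difference in rank score was 0.15 over the members, with quartiles of -0.04 and 0.32, against 0.00 over all regions, and 1358 members (69.5%) had a higher mean score in Pbrm1 cKO.

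In 441 members (22.6%) all 3 Pbrm1 cKO libraries ranked the region above all 3 WT libraries, whereas this held for 10.6% of all regions. The converse, all WT ranks above all Pbrm1 cKO ranks, held for 11 members, against 10.8% of all regions. It held for 811 (39.1%) of the promoter regions called only in WT, a larger share than the 22.6% of members separated the other way. Without WT library 3 the Pbrm1 cKO ranks stood above the other WT ranks at 799 members (40.9%), and at 17.3% of all regions. At the remaining members the ranks of the 2 genotypes overlapped.

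The member called higher was the region near Gm44872 within Zfp566, at chr7:30086392-30086866. It held 23, 30 and 16 tags in the WT and 89, 65 and 69 tags in the Pbrm1 cKO libraries. Every Pbrm1 cKO value was above every WT value. The rank score was 0.32 ± 0.21 in WT and 2.23 ± 0.26 in Pbrm1 cKO (SD, n = 3 each), a difference of 1.91 ± 0.31 (SE, limma adjusted p = 0.0262). It also had the highest −log10 p of all members in the Pbrm1 cKO list, 122. The call was lost with any 1 of the 6 libraries left out, fits in which 2 to 25 of all 66679 regions were called. The region came within 1 kb of the pseudogene start, but its summit lay 1161 bp downstream of it.

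The 9 members next in order of p had adjusted p-values of 0.0689 to 0.0849 (limma), and so did not pass. Gm26648, an antisense RNA gene whose member lay in an intron of Nub1, held 11, 8 and 9 tags in the WT and 34, 32 and 34 tags in the Pbrm1 cKO libraries. The WT libraries lay close together and far from the Pbrm1 cKO libraries there, with a difference of 1.46 ± 0.29 (SE) in rank score. At Nat8f4, which encodes a member of an N-acetyltransferase family, WT libraries 1 and 2 held 16 and 7 tags, WT library 3 had no entry, and the Pbrm1 cKO libraries held 32, 27 and 29 tags. Its difference was 1.32 ± 0.27 (SE), and both Gm26648 and Nat8f4 passed only when the replicate number entered as a block. That fit called 130 of all 66679 regions. At Arhgap22 WT library 1 had no entry, WT libraries 2 and 3 held 8 and 6 tags, and the Pbrm1 cKO libraries held 29, 24 and 28 tags.

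Of the same 9, Nrxn2, a neurexin of presynaptic adhesion, held 11, 10 and 7 tags in the WT and 23, 26 and 27 tags in the Pbrm1 cKO libraries. Rph3a, the vesicle protein rabphilin, held 9, 7 and 6 tags in the WT and 26, 20 and 21 tags in the Pbrm1 cKO libraries. The groups did not overlap at either gene. The other members of this order were named by Srrm2, a protein of splicing speckles, by Rbfa, a factor of mitochondrial ribosome assembly, by Mir8112 within the muscle methyltransferase gene Smyd1, and by Adam33, a membrane metalloprotease. Their limma adjusted p-values were 0.0780, 0.0838, 0.0849 and 0.0849 in that order. In each of them every Pbrm1 cKO rank was above every WT rank. The 9 were picked by the smallest p in this same comparison, which favours groups that do not overlap.

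**Figure D3:**
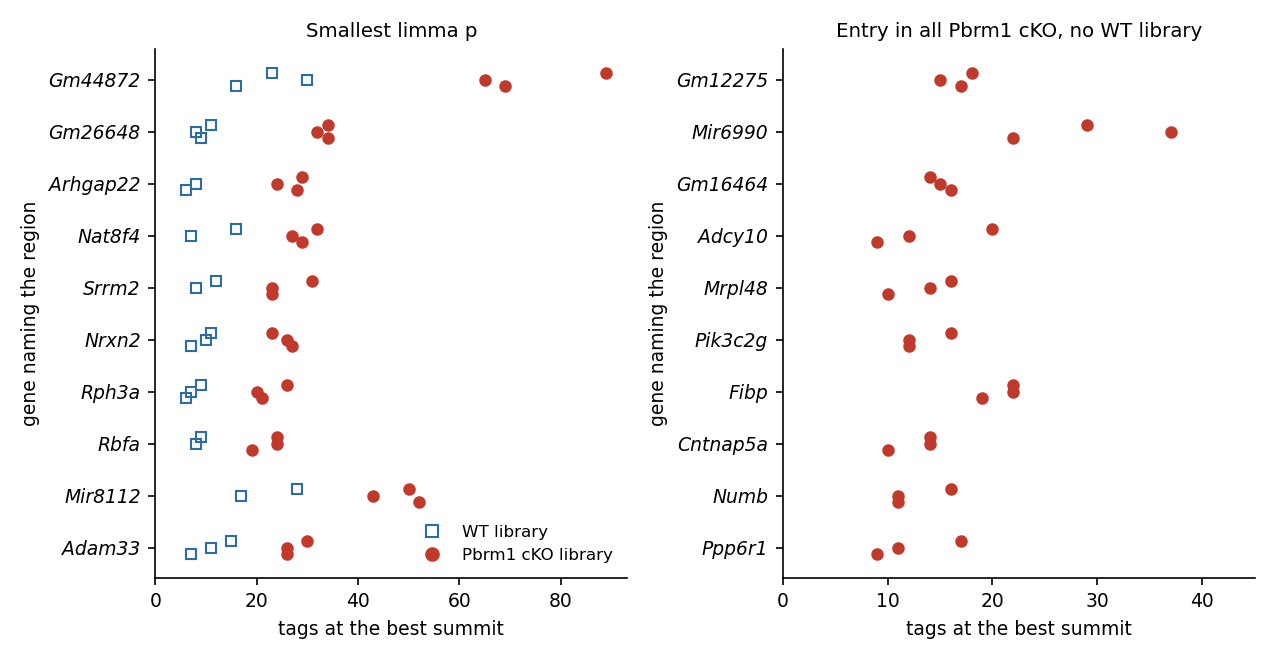
Tags at the best summit in each library (squares WT, circles Pbrm1 cKO) for the 10 members with the smallest limma p (left) and the 10 best-ranked members with an entry in all Pbrm1 cKO and no WT library (right); a library without an entry has no symbol. On the left Gm44872 stands apart at 65 to 89 tags in Pbrm1 cKO libraries against 16 to 30 in WT, and the right panel holds no WT symbol.

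Of the 10 members with the highest −log10 p, which include Gm44872, 5 had Pbrm1 cKO ranks above all WT ranks, compared with 22.6% of all members. At the other 5 the ranks overlapped. The 10 were chosen by their p in the Pbrm1 cKO list, which favours high ranks in the Pbrm1 cKO libraries. The member at Elac1, which encodes a tRNA-processing nuclease, held 50, 15 and 37 tags in the WT and 44, 37 and 49 tags in the Pbrm1 cKO libraries. Here the WT libraries differed among themselves more than the genotypes did, and the difference in rank score was -0.11 ± 0.52 (SE, limma adjusted p = 0.947). At Rxrb, the retinoid X receptor beta gene, the member held 54, 29 and 36 tags in the WT and 77, 83 and 60 tags in the Pbrm1 cKO libraries, and a WT region lay 65 bp away. Its difference was 0.86 ± 0.40 (SE, adjusted p = 0.303).

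Others of the strongest 10 had groups that did not overlap. Lhx3, a LIM homeobox regulator of pituitary and motor neurons, held 21, 8 and 10 tags in the WT and 31, 36 and 36 tags in the Pbrm1 cKO libraries, a difference of 1.25 ± 0.32 (SE, limma adjusted p = 0.101). Sos2, a Ras exchange factor, held 12, 14 and 13 tags in the WT and 34, 31 and 40 tags in the Pbrm1 cKO libraries, a difference of 1.46 ± 0.34 (SE, adjusted p = 0.0871). Rab3c, a small GTPase of synaptic vesicles, held 18, 13 and 16 tags in the WT and 36, 32 and 29 tags in the Pbrm1 cKO libraries. None of the 3 passed the threshold.

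The 19 members with an entry in all Pbrm1 cKO and no WT library were small peaks. The best-ranked, near the pseudogene Gm12275 in an intron of Ttc19, held 18, 15 and 17 tags in the Pbrm1 cKO libraries. Adcy10, the soluble adenylyl cyclase that responds to bicarbonate, held 20, 12 and 9 tags, Mrpl48, a mitochondrial ribosomal protein, 16, 14 and 10 tags, and Pik3c2g, a class II phosphoinositide kinase, 16, 12 and 12 tags. Mir6990 within the nuclear receptor gene Esrra was higher, at 29, 37 and 22 tags. WT entries at these sites were below the limit of each list, which does not show closed chromatin, and the difference at Gm12275 was 0.52 ± 0.13 (SE, limma adjusted p = 0.0887).

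Next, the genes were considered. A start of 2090 genes lay within 1 kb of a member, and 1266 of these genes (60.6%) also had a promoter region in both lists. The 2090 genes include noncoding ones, so this share has no direct match among protein-coding genes. Of all 21924 protein-coding genes 58.8% had a promoter region in both lists. A member lay at 8.48% of the protein-coding genes with such a region and at 4.56% of those without. By the naming gene, 1166 members (59.7%) had another promoter region that was called in both genotypes, against 60.6% of the regions called only in WT. The genes with a member had 1685 promoter regions in both lists, of which limma called 2 higher and 0 lower. Their median difference was -0.03, against -0.02 over all 17530 promoter regions in both lists. These 1685 regions were not chosen on a difference in calls, and over all promoter regions in both lists limma called 6 higher and 1 lower. The 2 were at Fggy, a carbohydrate kinase gene, and Kif11, a mitotic kinesin gene.

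The region at the Fggy start, chr4:95557268-95557836, held 20, 12 and 8 tags in the WT and 95, 78 and 89 tags in the Pbrm1 cKO libraries, a difference of 3.77 ± 0.34 (SE, limma adjusted p = 0.000103). The member at another start of Fggy, chr4:95769712-95770284, held 17, 27 and 12 tags in the WT and 18, 20 and 20 tags in the Pbrm1 cKO libraries. Its groups overlapped, with a difference of -0.24 ± 0.32 (SE, adjusted p = 0.770). At Kif11 the region in both lists held 91, 73 and 39 tags in the WT and 171, 160 and 139 tags in the Pbrm1 cKO libraries (difference 4.60 ± 0.77, SE, adjusted p = 0.0314). The Kif11 call was lost with WT library 1, 2 or 3 or Pbrm1 cKO library 1 or 2 left out, with normal scores and with ranks by fold. The member beside it held 26, 14 and 16 tags in the WT and 31, 26 and 38 tags in the Pbrm1 cKO libraries, with a difference of 0.05 ± 0.23 (SE, adjusted p = 0.940).

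Of the members, 1468 (75.2%, Wilson interval 73.2% to 77.0%) were named by a protein-coding gene, the gene with the nearest start. The share was 79.3% for the promoter regions called only in WT and 87.8% for those in both lists. Intergenic long noncoding RNA genes named 155 members (7.94%), antisense genes 80, processed pseudogenes 62 and microRNA genes 29. A start of a basic transcript lay within 1 kb of 1490 members (76.3%), compared with 85.0% of the regions called only in WT and 91.1% of those in both lists.

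The summits of members were less concentrated at the start than those of regions in both lists. Their summits were a median of 329 bp from the nearest start, against 318 bp in regions called only in WT and 80 bp in regions in both lists. In 469 members (24.0%) the summit was within 100 bp of a start, against 26.8% and 55.3%. The summit was in an intron in 46.8%, in an exon in 31.03% and between genes in 22.2%, and in regions of both lists these shares were 27.0%, 40.3% and 32.7%. Members were upstream of the nearest start in 52.7%, regions called only in WT in 45.5% and regions in both lists in 62.0%.

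**Figure D4:**
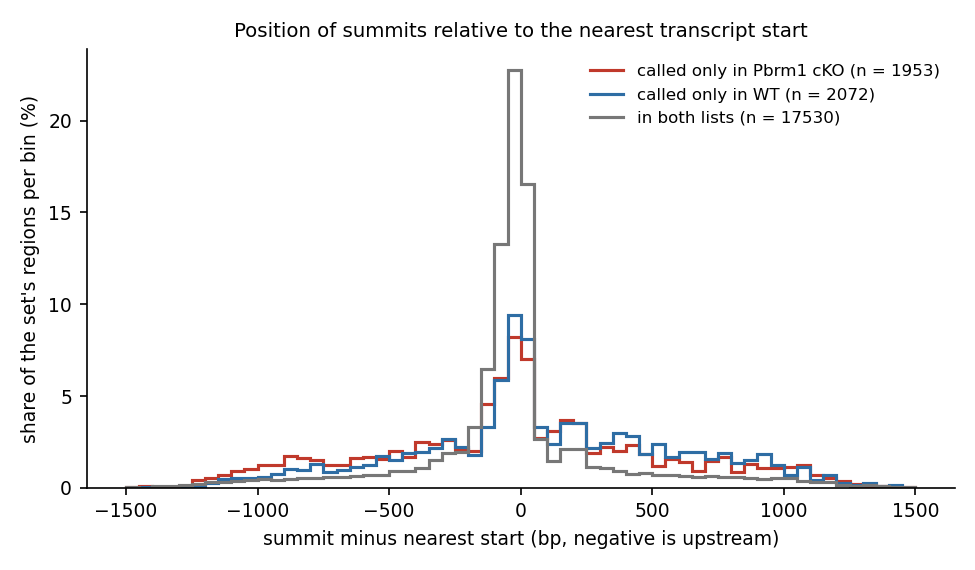
Distance from the nearest transcript start to the summit (bp, negative is upstream in the direction of transcription) as the share of each set's regions per bin of 50 bp. All 3 sets are highest next to the start, and the peak is lower in members and regions called only in WT, with 8.19% and 9.41% of regions in the 50 bp just upstream, than in regions of both lists.

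Composition split the members into CpG-poor and CpG-rich sites. With CpG-rich defined as at least 50% GC and an observed over expected CpG ratio of at least 0.6 in the 300 bp around the summit, 563 members (28.8%, Wilson interval 26.9% to 30.9%) were CpG-rich. The share was 29.1% in regions called only in WT and 61.5% in regions of both lists. The median ratio was 0.390, 0.455 and 0.723 in the 3 sets. At the upper end, 108 members (5.53%) reached a ratio of 1 or more, against 1.83% of the regions called only in WT and 10.1% of those in both lists, a cut chosen after the distributions were seen.

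**Figure D5:**
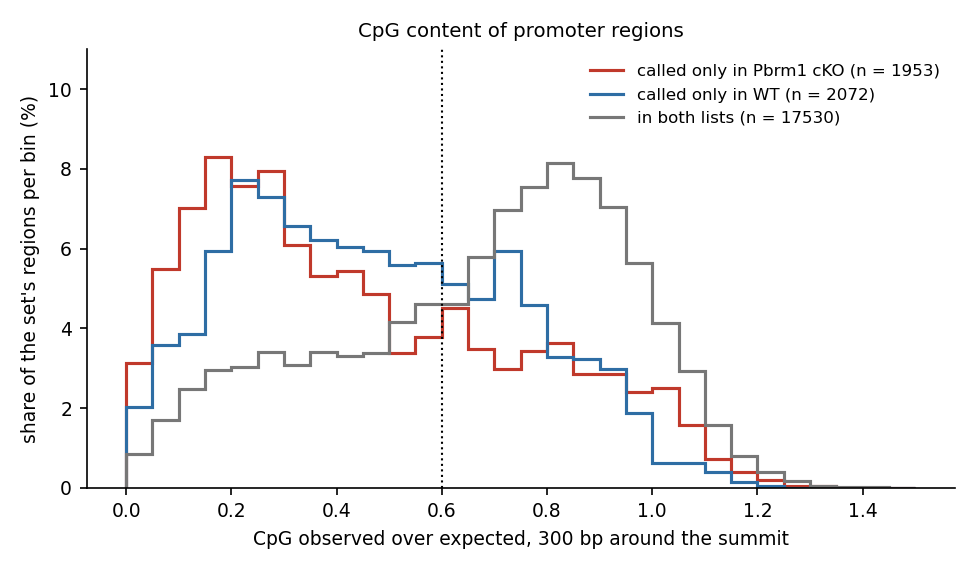
Observed over expected CpG in 300 bp around the summit (x axis) as the share of each set's regions per bin of 0.05; the dotted line marks the ratio of 0.6 used for CpG-rich. Members gather below the line with a tail up to ratios above 1, and regions in both lists gather above it.

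CpG-rich members were the more gene-like of the 2 kinds, as in the other 2 sets. Their summits were a median of 153 bp from a start and 90.1% were named by a protein-coding gene, whereas the 1390 other members were 436 bp away and 69.1% were so named. In regions called only in WT the distances were 221 and 375 bp and the shares 89.7% and 75.1%. In regions of both lists they were 49 and 266 bp and 95.6% and 75.5%. The median difference in rank score was 0.02 in CpG-rich and 0.18 in the other members. In the regions called only in WT it was -0.36 and -0.29. A repeat covered at least 50% of the 300 bp in 59 members (3.02%), against 1.88% and 0.525% of the other sets.

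Motif letters were counted on both strands of the 300 bp, and each count is a match of letters and not a bound site. The AP-1 letters TGANTCA, which Fos and Jun proteins recognise, were in 460 members (23.6%), compared with 18.6% of regions called only in WT, 13.4% of those in both lists and 14.8% of all 21555 promoter regions. Among regions that were not CpG-rich these shares were 31.7%, 24.8% and 28.0%. The RUNX letters TGTGGT were in 19.3%, 17.1% and 13.2% of the 3 sets and 14.2% of all promoter regions. The GATA letters AGATAA were in 10.5%, 10.4% and 6.09%, and in 6.91% of all.

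Letters typical of CpG island promoters were less common in the members. The GC box GGGCGG was in 30.7% of members, 29.4% of regions called only in WT and 56.2% of regions in both lists, and in 51.3% of all promoter regions. The ETS letters CCGGAAG were in 3.53%, 3.86% and 14.02%, and in 12.1% of all. The NRF1 palindrome was in 1.08%, 1.11% and 7.46%, and in 6.27% of all. The CArG box of serum response factor, which drives smooth muscle genes, was in 1.13%, 1.35% and 1.27%, and in 1.26% of all.

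The core motif of CTCF, the zinc finger protein that anchors chromatin loops, differed in share between the sets called in only 1 genotype. It was in 85 members (4.35%, Wilson interval 3.53% to 5.35%), 26 regions called only in WT (1.25%, 0.858% to 1.83%) and 451 regions in both lists (2.57%), and in 2.61% of all. Among regions that were not CpG-rich the shares were 5.76%, 1.70% and 4.84%. A wider form of the core, tried after the counts were seen, was in 5.33%, 1.98% and 4.59%, and in 4.41% of all. With the wider form the Wilson intervals of the members and the regions in both lists overlapped, and the regions called only in WT still had the lowest share. Regions in both lists that held the first form had a median rank score difference of 0.09, with 60.5% higher in Pbrm1 cKO, and those without it -0.03 and 47.4%. Of these 451 regions limma called 0 higher and 0 lower, against 6 and 1 of all 17530 promoter regions in both lists. With calls that rare, the 0 says little about regions with the core.

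Across the 25 gene lists of muscle, signalling and identity genes, 64 of 608 genes (10.5%) had a member within 1 kb of a start, against 6.86% of all 21924 protein-coding genes. Regions called only in WT were at 11.5% of the listed genes and 7.78% of all. The listed genes had 71 member regions, of which limma called 0 higher and 0 lower, against 1 and 0 of all 1953 members. Of the 71 regions, 67 had an entry in all 3 WT libraries. Their median difference was 0.02, from -0.63 to 1.25. The AP-1, oviduct epithelium and endothelium lists had 0 genes with a member.

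Among 25 contractile genes of smooth muscle 2 had a member (8.00%), Synm, an intermediate filament protein, and Flna, the actin crosslinker filamin A. The Synm member held 19, 22 and 12 tags in the WT and 25, 26 and 29 tags in the Pbrm1 cKO libraries (limma adjusted p = 0.666), and Synm also had a promoter region in both lists. Of 25 regulators 4 had one (16.0%), Mef2c, Nfatc1, Gata5 and Prrx1, with 6 regions in all, of which 3 had a higher mean score in Pbrm1 cKO (median difference -0.01, from -0.52 to 0.41). Mef2c, a MADS box factor of muscle, held 13, 10 and 7 tags in the WT and 26, 15 and 16 tags in the Pbrm1 cKO libraries, without overlap in rank but short of the threshold (limma adjusted p = 0.269). Prrx1, a homeobox factor of mesenchyme, held 23, 23 and 16 tags in the WT and 24, 22 and 25 tags in the Pbrm1 cKO libraries. A member of Gata5, a zinc finger factor, had the lowest difference of the 6, with 33, 17 and 20 tags in the WT and 20, 16 and 17 tags in the Pbrm1 cKO libraries (adjusted p = 0.285).

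Of 25 prostaglandin genes 3 had a member (12.0%), and of 25 genes of contraction receptors and channels 3 had one (12.0%). The share over all listed genes was 10.5%. Ptger1 and Ptger2, receptors for prostaglandin E2, and Ptgir, the prostacyclin receptor, had a member and no promoter region in both lists. Ptgir held 31, 15 and 11 tags in the WT and 29, 30 and 20 tags in the Pbrm1 cKO libraries, and Ptger2 held 21, 15 and 13 tags in the WT and 17, 15 and 17 tags in the Pbrm1 cKO libraries. The genotypes overlapped at both (adjusted p = 0.676 and 0.485, limma). Adra1a, an alpha-1 adrenergic receptor, was likewise at 25, 13 and 10 tags in the WT and 16, 16 and 16 tags in the Pbrm1 cKO libraries. Chrm3, the M3 muscarinic receptor, held 17, 10 and 11 tags in the WT and 23, 21 and 23 tags in the Pbrm1 cKO libraries, without overlap in rank (adjusted p = 0.314). Avpr1a held 21, 11 and 16 tags in the WT and 17, 17 and 15 tags in the Pbrm1 cKO libraries, and the ranks overlapped. Its difference was -0.30 ± 0.20 (SE, limma adjusted p = 0.494).

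Of 24 steroid and nuclear receptor genes 6 had a member (25.0%), Esr1, Rara, Rxra, Pparg, Nr5a2 and Rora, and 10 had a region called only in WT. The Esr1 member, estrogen receptor alpha, held 22, 25 and 15 tags in the WT and 25, 25 and 18 tags in the Pbrm1 cKO libraries. At these genes 1 of 7 member regions had a higher mean score in Pbrm1 cKO (median difference -0.06). Of 25 SWI/SNF genes 3 had a member (12.0%), Arid1b, Dpf2 and Actl6b. Actl6b, the actin-related subunit of the neuronal complex, held 10, 19 and 12 tags in the WT and 32, 22 and 33 tags in the Pbrm1 cKO libraries, with a difference of 0.84 ± 0.33 (SE, limma adjusted p = 0.223). Arid1b, a subunit of the BAF form, held 28, 15 and 24 tags in the WT and 26, 29 and 22 tags in the Pbrm1 cKO libraries, a difference of -0.27 ± 0.25 (SE, adjusted p = 0.652). At Dpf2, a further BAF subunit, the difference was 0.13 ± 0.18 (SE, adjusted p = 0.765), and the ranks overlapped at both.

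Of 36 Wnt pathway genes 7 had a member (19.4%), the ligands Wnt1, Wnt5b, Wnt6 and Wnt10b, the receptor Fzd2 and the secreted inhibitors Sfrp2 and Sfrp4. Wnt1 held 28, 15 and 8 tags in the WT and 29, 30 and 27 tags in the Pbrm1 cKO libraries, so WT library 1 reached the Pbrm1 cKO level. Of 23 FGF genes 5 had a member (21.7%), Fgf2, Fgf13, Fgf18, Fgfrl1 and Spry4, each also with a promoter region in both lists. The ranks overlapped at every Wnt and FGF member, with median differences of 0.11 and -0.20. Among the lineage regulators Lhx3, Sox1, Pax6 and Foxa1 had one, and Sox1, a neural SOX factor, held 12, 6 and 5 tags in the WT and 15, 18 and 13 tags in the Pbrm1 cKO libraries (adjusted p = 0.253, limma). Pax6, a paired box factor of eye and brain, held 27, 21 and 19 tags in the WT and 29, 24 and 19 tags in the Pbrm1 cKO libraries, with a difference of -0.25 ± 0.22 (SE, adjusted p = 0.627).

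Pdgfra, the platelet-derived growth factor receptor of mesenchymal cells, had 2 members. One held 34, 23 and 18 tags in the WT and 41, 36 and 42 tags in the Pbrm1 cKO libraries, and the other 23, 23 and 12 tags in the WT and 36, 28 and 34 tags in the Pbrm1 cKO libraries. Every Pbrm1 cKO rank was above every WT rank at both (adjusted p = 0.337 and 0.197, limma). Dcn, the proteoglycan decorin, held 21, 16 and 8 tags in the WT and 25, 29 and 19 tags in the Pbrm1 cKO libraries, again without overlap in rank (adjusted p = 0.298). Cspg4, the pericyte proteoglycan NG2, held 28, 16 and 12 tags in the WT and 28, 18 and 17 tags in the Pbrm1 cKO libraries, which overlapped (adjusted p = 0.907, difference -0.07). Pdgfra and Dcn mark fibroblasts. Of the 4 shared promoter regions of fibroblast markers limma called 0, against 0.04% of all 17530 promoter regions in both lists. At that share 4 regions would rarely hold a call, so no conclusion is drawn from the 0.

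The members were spread over the genome. Chromosome 7 held the most, 154 (7.89%), against 7.79% of the promoter regions in both lists, and chromosome 1 held 7.42%, against 5.79%. Within 20 Mb of Pbrm1 on chromosome 14 there were 27 members (1.38%), against 1.88% of the regions called only in WT and 1.23% of those in both lists. Of the 1831 genes that named a member, 115 named more than 1, and Adcy6, Foxp1, Shisa7, Tenm4, Tmcc2, Tnni1 and Zdhhc22 named 3 each.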

How the data were processed

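ATAC-seq of oviduct muscle was analysed from 6 libraries, grouped by their labels. Per the study's methods, the authors used the ENCODE ATAC-seq pipeline 1.9.0 on GRCm38 and called peaks with MACS2. The authors deposited a relaxed list per library (p of 0.01, at most 300000 entries) and 1 list per genotype at an irreproducible discovery rate (IDR) of 0.05 or less. Those 2 lists carry pooled values without replicates, and the replicates behind the IDR are not given in the sources used here. Entries hold the authors' fold enrichment, a ratio, their −log10 p, in relaxed lists their −log10 q, and a score, which the authors deposited as a rescaled p or IDR. Read counts were not used here, so within-library ranks took the place of the count comparison in the study's methods. Ranks do not show a change that all regions share.

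Entries sharing at least 1 bp were merged. Transcript starts came from GENCODE M21, including those of transcripts outside its basic set, and all regions lay inside the chromosomes of GRCm38. Tags were recovered from fold and p, and 99.98% to 99.99% of the summits per library and 95.9% and 99.0% in the pooled lists gave a whole number (tolerance 0.001 in −log10 p). Total reads are unknown here, and the median was 8 tags per listed summit in WT library 3 against 13 to 15 in the others. A region without an entry was placed last. Genotypes were compared with limma 3.58.1 run under R 4.3.3 (trended eBayes, Benjamini-Hochberg over 66679 regions), and the script was tested on simulated data. The labels do not say whether the same replicate number pairs WT and Pbrm1 cKO libraries, and the main fit left them unpaired. Deviations of same-numbered libraries correlated at -0.05 to 0.01, which cannot show whether they were prepared together.

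The members, gene lists and motifs were chosen with earlier results of these data known. Named members were the 10 with the highest −log10 p, the 10 with the smallest limma p, the 10 best-ranked with an entry in all Pbrm1 cKO and no WT library, and up to 3 per gene list by −log10 p. Sequences were shown for up to 6 protein-coding genes with a basic start outside chromosome 18 from the groups by limma p and by missing WT entries, and for Gm44872. That sequence, the wider CTCF core, the CpG ratio of 1 and the comparisons without WT library 3 were chosen after values were seen. Sequence features used 300 bp around the summit. Python 3.11.15, numpy 2.4.6, pandas 2.3.3 and scipy 1.17.1 were used.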

Additional observations from a re-analysis of the deposited data

How the results depend on the processing

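The number of members kept within 1.5 times its value of 1953 under 7 of 8 other definitions, from 1308 with no WT region within 500 bp to 2489 with partly covered regions added, and was 3384 within 3 kb of a start. The share of members with an entry in all WT libraries (81.6%) was 74.8% for entries at a q of 0.05 or less and 44.1% among the 100000 best-ranked intervals. It was 83.8% for members near basic starts (added after seeing the data), and 83.0% to 91.4% with 1 WT library left out. Of the 1561 regions that met the rule at an IDR of 0.01 or less, 95.1% had an entry in all WT libraries. Only 614 of these 1561 regions were members. In the rank comparison, limma called 0 members with normal scores, 0 with ranks by fold and 0 with any 1 library left out. Over all 66679 regions the same fits called 23, 7 and 2 to 25 regions. With the replicate block, which called 130 of all 66679 regions, 3 members were called, Gm44872, Gm26648 and Nat8f4, and 2 same-gene regions in both lists. Of these same-gene regions 1, Fggy, was called with normal scores and with ranks by fold, and 1 to 2 with 1 library left out, Kif11 being kept only without Pbrm1 cKO library 3. The CpG-rich share was 19.8% of members and 45.0% of regions in both lists at a ratio of 0.75 or more. It was 33.5% of the 1561 regions at an IDR of 0.01 or less. With basic starts only, 67.0% of the 1490 members near such a start were named by a protein-coding gene, and 22.1% had a summit within 100 bp of one. Of the 1561 regions at an IDR of 0.01 or less, these shares were 77.1% and 27.9%. The numbers of tags at most members, with medians of 12 to 23 per library, limit what a single library can show.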
